A study of Mus musculus with 6 samples.

Results

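A group of 10 genes that regulate the making of mitochondria was followed in cerebral microvessels of TEKCRIF1 mice: the 3 PGC-1 coactivators *Ppargc1a*, *Ppargc1b* and *Pprc1*, the nuclear transcription factors *Nrf1*, *Gabpa* and *Esrra*, and the mitochondrial transcription genes *Tfam*, *Tfb1m*, *Tfb2m* and *Polrmt*. They were chosen by gene symbol, and all 10 were found among the 23183 symbols with an expression value in every library. RNA came from vessels isolated from the brains of C57BL/6 mice, with 3 libraries from WT mice (TEK-cre, *Crif1* +/+) and 3 from KO mice (TEK-cre, *Crif1* flox/flox). Both groups therefore carry the Cre recombinase, which is driven by *Tek* and is known to act in endothelial cells and also in blood cell lineages. *Crif1* is listed under its symbol *Gadd45gip1* and encodes a protein of the mitochondrial ribosome. The age and sex of these mice are not given in the sources used here. Each library was taken as 1 mouse, and the p-values measure the spread between libraries. Values of single libraries are listed throughout in the order of replicate numbers 1, 2 and 3.

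Mitochondria are built from proteins encoded in the nucleus and in mitochondrial DNA (mtDNA), and the 10 genes connect the transcription of both genomes. The PGC-1 proteins do not bind DNA themselves. They are recruited by factors such as NRF1, the ETS factor GABP and the nuclear receptor ERRα, which is encoded by *Esrra*, to promoters of respiratory chain genes. Among the genes controlled in this way are *Tfam*, *Tfb1m*, *Tfb2m* and *Polrmt*, whose products transcribe mtDNA: POLRMT is the RNA polymerase, TFAM bends and packages the DNA, TFB2M opens the promoter, and TFB1M is known mainly as a methyltransferase of the mitochondrial ribosome's RNA. Brain endothelium is known for a high mitochondrial content.

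Promoters of the 10 genes were read for exact matches, on either strand, to 3 motifs: that of NRF1 (GCGCA, any base, then GCGC), that of GABP (CCGGAAGT) and that of ERR receptors (TNAAGGTCA). A promoter entry covers 250 bases before and 50 after a RefSeq start site (GRCm38.p6, the same assembly as mm10). The table held 10 entries for 9 of the genes, *Nrf1* having 2 and *Ppargc1b* none. A GABP match was found for *Tfam* and an NRF1 match for *Polrmt*, and 3.89% and 4.6% of all 32851 promoter entries held these motifs. No match of the ERR motif was found in these entries, against 1.28% of all entries. Both sequences are shown because they hold the matches found, which are in capitals. The *Tfam* stretch, chr10:71238045-71238144 on the minus strand, ends at the last base before the RefSeq start site. In GENCODE M21 the gene begins further upstream, so the stretch lies within the span of *Tfam* given below. The *Polrmt* stretch, chr10:79746572-79746681 on the minus strand, runs 10 bases past the start site, and its capitals are 2 overlapping NRF1 matches read on the opposite strand. A match is a description of the letters and not evidence that a factor binds.
Tfam: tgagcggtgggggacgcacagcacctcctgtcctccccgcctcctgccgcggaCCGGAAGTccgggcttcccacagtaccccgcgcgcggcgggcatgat
Polrmt: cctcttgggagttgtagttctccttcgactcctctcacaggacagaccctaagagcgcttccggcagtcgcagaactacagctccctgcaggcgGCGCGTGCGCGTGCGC

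Gene positions are those of GENCODE M21 on GRCm38 and span all exons and introns. Expression was given as FPKM, which corrects for transcript length and library size. Estimated depth ran from 6500000 to 11900000 fragments per library. A count of 3 fragments on a 1-kb transcript then equals 0.253 to 0.463 FPKM, by counting error alone. *Gadd45gip1* (chr8:84831522-84835482, plus strand) was measured at 18.8, 15.3 and 16.5 FPKM in WT and at 10.8, 7.54 and 10.4 FPKM in KO, so every KO library lay below every WT library (log2 fold change −0.77, SE 0.22; limma p = 0.00534, adjusted p = 0.841; exact permutation p = 0.1, the smallest 3 against 3 can give). Over the 14247 genes that averaged 1 FPKM or more, limma called 0 genes at an adjusted p under 0.05, which is 0% of them, and 838 genes, or 5.88%, at an unadjusted p under 0.05. The unadjusted calls were higher in KO for 2.77% of genes and lower for 3.11%. Every KO library lay above every WT library for 5.37% of genes and below for 5.7%, together 11.1%. The values of the libraries are therefore given first below.

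Expressed per length, *Esrra* was the most abundant of the 10 genes and *Tfb1m* the least. In WT mice the mean levels ran from 12.6 FPKM for *Esrra* through 9.63 for *Tfb2m*, 9.41 for *Gabpa*, 7.76 for *Nrf1*, 7.02 for *Polrmt* and 6.90 for *Tfam* to 3.88 for *Ppargc1b*, 3.03 for *Ppargc1a* and 2.56 for *Pprc1*. *Tfb1m* had values of 1.56 to 2.93 FPKM in WT mice. In that order, only *Tfam* and *Ppargc1b* were neighbours whose ranges over the 3 WT libraries did not overlap. In KO mice the only such step was from *Esrra* to *Tfb2m*. There *Ppargc1a* (4.81 FPKM) stood above *Pprc1* (3.45) and *Ppargc1b* (3.43), although their ranges overlapped. Over all 6 libraries, *Esrra* was higher than 66.7% of the genes tested, and the 3 coactivators were each higher than 17.4% to 23.5% of them.

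**Figure D1:**
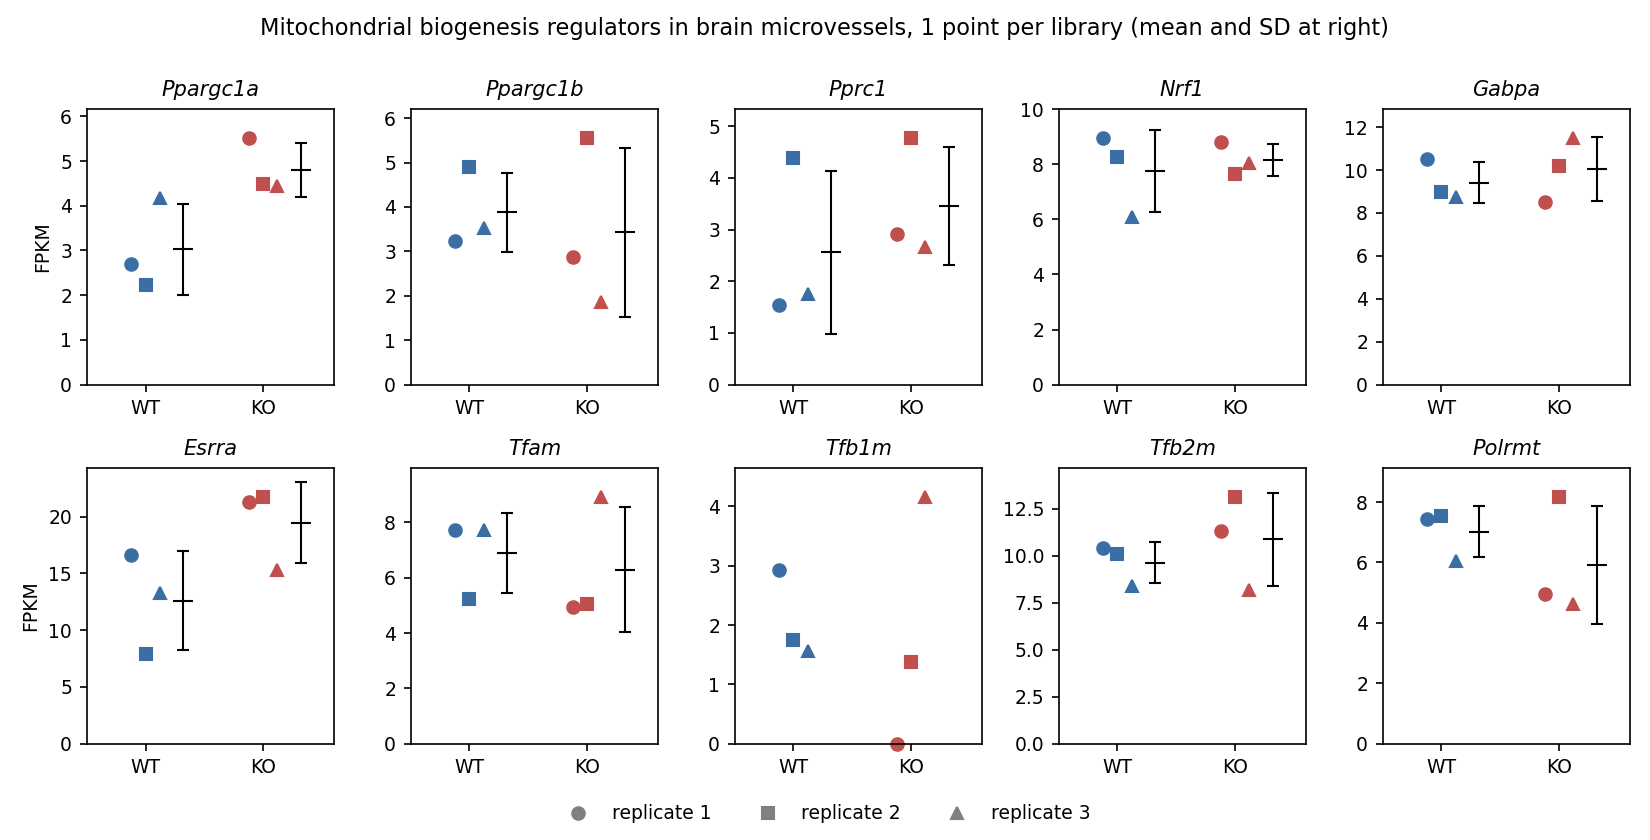
Level of each of the 10 genes in FPKM (vertical axes, each starting at 0) in the WT libraries (blue) and KO libraries (red), with 1 point per library, its shape giving the replicate number, and the mean ± SD (n = 3) drawn to the right of each group except for *Tfb1m*. *Ppargc1a* is the gene whose 3 KO points all lie above its 3 WT points, and *Tfb1m* is listed at 0 in KO 1.

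The coactivators differed in the sign of their KO minus WT difference, and *Ppargc1a* alone separated the groups. *Ppargc1a* (chr5:51454250-51567726, minus strand) encodes PGC-1α, the coactivator that responds to cold, fasting and energy demand. Its level was 2.69, 2.22 and 4.17 FPKM in WT and 5.51, 4.48 and 4.43 FPKM in KO. Every KO library was above every WT library, but WT 3 came close to KO 3. The mean was 3.03 ± 1.02 FPKM in WT and 4.81 ± 0.608 FPKM in KO (SD, n = 3 each; exact permutation p = 0.1), a difference larger than either SD. In the fit across all genes, the log2 fold change was 0.55 (SE 0.28, 95% interval −0.07 to 1.18), which did not pass the test (limma adjusted p = 0.841). Leaving out WT 3 gave 0.75, past the unadjusted threshold, and leaving out WT 2 gave 0.41, short of it. These values rest on an estimated 130 to 340 fragments per library.

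*Ppargc1b* (chr18:61298136-61400431, minus strand) encodes PGC-1β, a coactivator with much the same targets. It was measured at 3.23, 4.90 and 3.52 FPKM in the WT libraries and 2.87, 5.55 and 1.87 FPKM in the KO libraries. The groups overlapped, since KO 2 held the highest value of all and KO 3 the lowest (log2 fold change −0.21, 95% interval −0.98 to 0.56; exact permutation p = 0.6). *Pprc1* (chr19:46044886-46072915, plus strand), which encodes the PGC-1-related coactivator known to respond to serum, was at 1.54, 4.38 and 1.76 FPKM in WT and 2.92, 4.77 and 2.67 FPKM in KO. The single high WT library, WT 2, exceeded both KO 1 and KO 3 (log2 fold change 0.38, 95% interval −0.44 to 1.19; exact permutation p = 0.4). Without WT 2 the log2 fold change of *Pprc1* was 0.72, and without WT 1 it was 0.18, both short of the unadjusted threshold. For both genes the 2 libraries with replicate number 2 were the highest.

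A ratio taken within a library does not depend on how libraries are scaled, but it is not free of trends with GC content. The GC content of the longest transcript was 41.7% for *Ppargc1a*, 57.8% for *Ppargc1b* and 55.9% for *Pprc1*. The correlations of the libraries with GC content, given below, differed between the groups. The part of GC content in the coactivator shares was not tested. *Ppargc1a* made up 36.0%, 19.3% and 44.2% of the summed coactivator FPKM in WT and 48.8%, 30.3% and 49.4% in KO. The mean share was 33.2 ± 12.7% in WT and 42.8 ± 10.9% in KO (SD, n = 3 each; exact permutation p = 0.5), a difference smaller than either SD. The share of *Ppargc1b* was 43.3%, 42.6% and 37.2% in the WT libraries and 25.4%, 37.5% and 20.9% in the KO libraries, where KO 2 lay just above WT 3 (exact permutation p = 0.2). The sum of the 3 coactivators overlapped between groups, at 7.47 to 11.5 FPKM in WT and 8.97 to 14.8 FPKM in KO (exact permutation p = 0.5).

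Among the transcription factors, *Esrra* differed most between the groups, while *Nrf1* and *Gabpa* had near-equal means. *Esrra* (chr19:6910977-6921813, minus strand) was at 16.6, 7.94 and 13.3 FPKM in WT and at 21.3, 21.7 and 15.3 FPKM in KO. The groups overlapped by 1 library, KO 3 being below WT 1. The mean was 12.6 ± 4.36 FPKM in WT and 19.4 ± 3.57 FPKM in KO (SD, n = 3 each). Its log2 fold change of 0.63 (SE 0.28, 95% interval 0.01 to 1.25) passed the unadjusted threshold (limma p = 0.0471, adjusted p = 0.841; exact permutation p = 0.2). *Esrra* was the 1 gene of the 10 called at the unadjusted threshold and higher in KO, a share of 10% read against the 2.77% of all genes above, and 0 of the 10 were called lower. Without WT 2, the library with the lowest value, its log2 fold change was 0.35, short of the unadjusted threshold. Exons of *Esrra* overlap those of *Trmt112* on the opposite strand, and whether reads were counted by strand is not given in the sources used here. *Trmt112* itself was at 31.4, 41.4 and 43.3 FPKM in WT and 63.9, 25.8 and 40.8 FPKM in KO. The part of its reads in the level of *Esrra* was not tested.

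*Nrf1* (chr6:30047988-30153458, plus strand), nuclear respiratory factor 1, was at 8.94, 8.25 and 6.07 FPKM in WT and 8.81, 7.65 and 8.05 FPKM in KO. The KO libraries lay within the WT range (log2 fold change 0.08, 95% interval −0.43 to 0.58; exact permutation p = 0.9). *Gabpa* (chr16:84834925-84863779, plus strand), which encodes the DNA-binding subunit of GABP, was at 10.5, 8.98 and 8.75 FPKM in WT and 8.51, 10.2 and 11.5 FPKM in KO. Its highest and lowest values were both in KO libraries (log2 fold change 0.08, 95% interval −0.40 to 0.56; exact permutation p = 0.7). These intervals leave room for increases of up to 0.58 for *Nrf1* and 0.56 for *Gabpa* on the log2 scale, so the test does not show that the groups are equal. *Gabpa* shares exonic sequence with *Atp5j* on the opposite strand.

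The genes that transcribe mtDNA had lower means in KO for 3 of 4, none of them past the test. For *Tfb1m*, 1 of these 3, the direction rested on a 0 listed in KO 1, and the log2 fold change was 0.21 without that library. *Tfam* (chr10:71225464-71238280, minus strand) was at 7.74, 5.22 and 7.72 FPKM in WT and at 4.93, 5.04 and 8.90 FPKM in KO. The values formed 2 levels that crossed the genotypes, with WT 1, WT 3 and KO 3 high and WT 2, KO 1 and KO 2 low (6.90 ± 1.45 FPKM in WT and 6.29 ± 2.26 FPKM in KO, SD, n = 3 each; exact permutation p = 0.8). The 3 high libraries were those of the greatest estimated depth, 11500000, 11600000 and 11900000 fragments, against 8900000, 8000000 and 6500000 in WT 2, KO 1 and KO 2. Among the deeper libraries the KO value was above both WT values, and among the shallower ones both KO values were below the WT value. The log2 fold change was −0.14 (95% interval −0.77 to 0.49) and became 0.16 with estimated depth as a covariate, a fit chosen after the data were seen. The part of depth in the level of *Tfam* was not tested further.

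*Polrmt* (chr10:79736123-79746581, minus strand), the polymerase, was at 7.45, 7.55 and 6.06 FPKM in WT and 4.95, 8.15 and 4.64 FPKM in KO. Both KO 1 and KO 3 lay below every WT library, and KO 2 lay above every one (log2 fold change −0.25, 95% interval −0.83 to 0.34; exact permutation p = 0.4). The change of *Polrmt* on the log2 scale was −0.47 without KO 2, −0.15 without KO 1 and −0.12 without KO 3, each short of the unadjusted threshold. *Tfb2m* (chr1:179528055-179546267, minus strand) was at 10.4, 10.1 and 8.38 FPKM in WT and 11.3, 13.1 and 8.19 FPKM in KO, with KO 1 and KO 2 above the WT range and KO 3 below it (log2 fold change 0.14, 95% interval −0.38 to 0.66; exact permutation p = 0.5). *Tfb1m* (chr17:3519256-3557781, minus strand) was at 2.93, 1.74 and 1.56 FPKM in WT, was listed at 0 in KO 1, and was at 1.38 and 4.15 FPKM in KO 2 and KO 3. In KO 1, 21 genes were listed at 0 while every other library had at least 1 FPKM, and the other libraries held 6 to 26 such genes each. A 0 here may therefore not be a measured level, and the fold change that includes it is uncertain. With KO 1 the log2 fold change was −0.39 (−1.29 with a pseudocount of 0.1 FPKM in place of 1) and without it 0.21 (limma p = 0.492 and 0.634; exact permutation p = 0.7 over the 6 libraries). An estimated 13 to 69 fragments lay behind each of the other *Tfb1m* values.

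**Figure D2:**
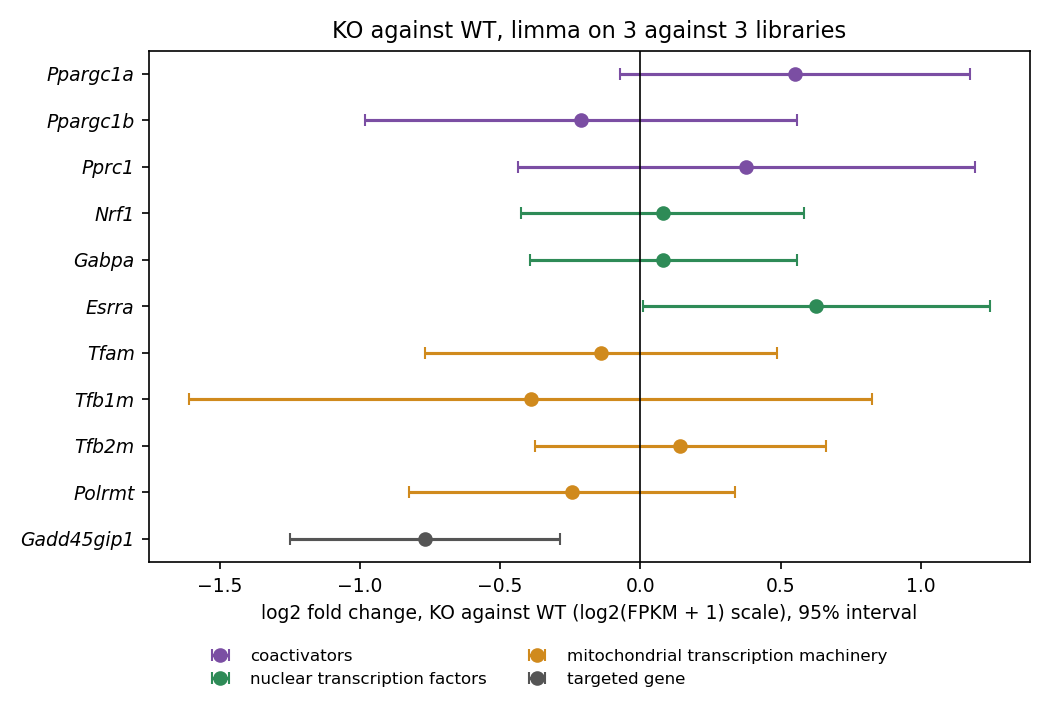
Log2 fold change of KO against WT on the log2(FPKM + 1) scale (horizontal axis) for each gene, with the 95% interval from limma on 3 against 3 libraries, coloured by role. The interval of *Esrra* starts just above 0, that of *Ppargc1a* includes 0, and only the targeted gene *Gadd45gip1* lies well clear of it.

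Taking the 10 genes as a list, 6 had a positive and 4 a negative log2 fold change, with a median of 0.08 beside −0.01 over all genes tested. With a library left out this median ran from −0.01 without WT 3 to 0.17 without WT 1, and it was 0.15 without KO 1 and 0.04 without KO 2. *Ppargc1a* was the 1 gene whose groups did not overlap, against 11.1% of all genes, so this count is close to the background. KO 2 held the highest value of 5 genes (*Ppargc1b*, *Pprc1*, *Esrra*, *Tfb2m* and *Polrmt*) and the lowest of 0. It also had the lowest *Gadd45gip1* level and the smallest estimated depth. Across 14165 genes, its log2 deviations from the mean of the 6 libraries had a positive Spearman correlation with transcript length (0.29), while those of KO 1 had a negative one (−0.29). The correlation in KO 3 was −0.14, and in the WT libraries it was 0.016 to 0.05. The correlations with GC content separated the groups, at 0.084, 0.313 and 0.151 in WT and −0.138, −0.247 and −0.028 in KO. A fit with each library corrected for length and GC content gave log2 fold changes of 0.46 for *Ppargc1a*, 0.60 for *Esrra* and 0.53 for *Pprc1*. Those of *Ppargc1b* and *Polrmt* shrank to −0.05 each, that of *Nrf1* was 0.01, and the median of the 10 genes became −0.03. None of the 10 passed the unadjusted threshold in that fit.

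**Figure D3:**
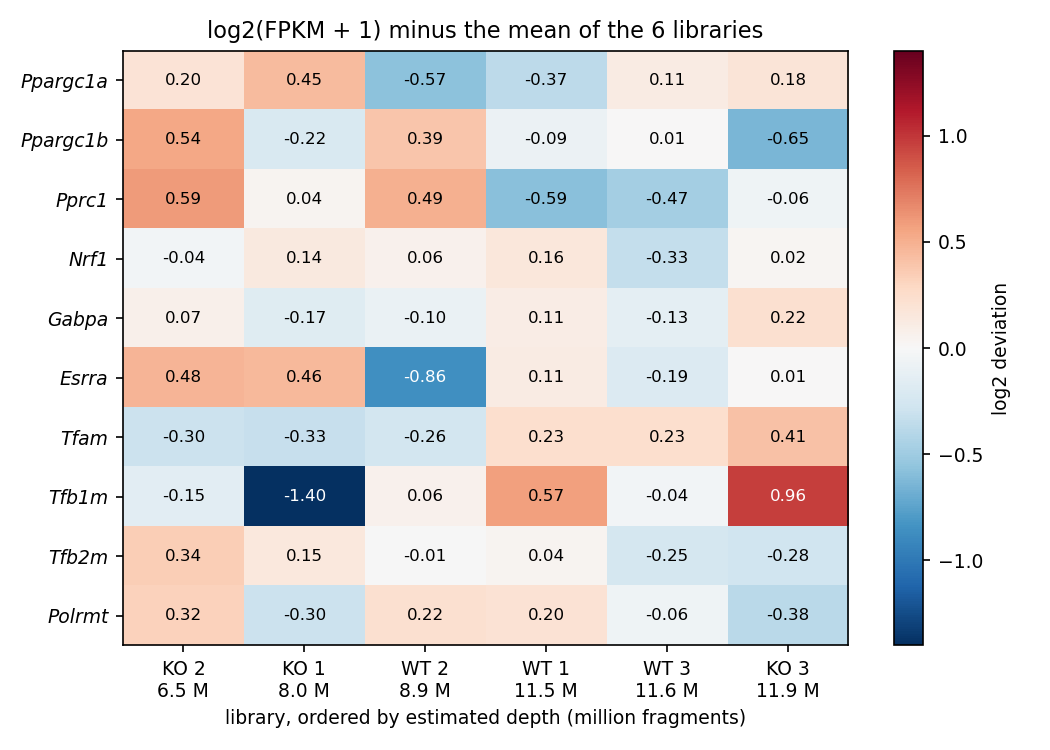
Log2(FPKM + 1) of each gene minus its mean over the 6 libraries, with genes in rows and libraries in columns ordered from the smallest to the largest estimated depth (M on the axis, fragments). Red is above and blue below the mean. *Tfam* is positive in the 3 deeper libraries and negative in the 3 shallower ones, KO 2 is red for *Ppargc1b*, *Pprc1*, *Esrra*, *Tfb2m* and *Polrmt*, and *Tfb1m* is lowest in KO 1.

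Other genes of the pathway were described from lists of gene symbols. Of 35 upstream regulators of PGC-1, all tested, 13 were higher and 22 lower in KO, with a median log2 fold change of −0.09. This median was −0.03 with GC and length correction or without KO 1, and −0.04 with KO 2 alone against the WT libraries. At the unadjusted threshold 3 were lower and 0 higher, or 8.57% of the list against 5.88% of all genes. *Crtc3*, a CREB coactivator, was at 10.8, 10.8 and 10.7 FPKM in WT and 6.91, 6.99 and 6.69 FPKM in KO, a separation far wider than the spread in either group (log2 fold change −0.58, SE 0.20; limma p = 0.0154, adjusted p = 0.841; exact permutation p = 0.1). *Tfeb*, a master factor of lysosome genes that is known to induce *Ppargc1a*, was at 20.5, 25.2 and 16.2 FPKM in WT and 15.9, 9.06 and 13 FPKM in KO (log2 fold change −0.68, SE 0.26; limma p = 0.0244, adjusted p = 0.841; exact permutation p = 0.1). The other one was *Prkag2*, an AMPK subunit, with overlapping groups (50.2 ± 9.66 FPKM in WT and 35.4 ± 5.10 FPKM in KO, SD, n = 3 each; exact permutation p = 0.2). Every KO library lay above every WT library for 1 gene of the 35 and below for 3, against 5.37% and 5.7% of all genes. The 1 above was *Prkaa2*, a catalytic subunit of AMPK, named after its values were seen, at 3.22, 3.45 and 3.58 against 2.51, 1.99 and 2.30 FPKM (exact permutation p = 0.1). *Zfp746*, which encodes the PGC-1α repressor PARIS, was chosen in the same way and was at 7.61, 9.62 and 10.9 FPKM in KO against 12.3, 13.2 and 12.9 FPKM in WT (exact permutation p = 0.1).

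Receptor partners and cofactors of the PGC-1 proteins included more genes with a lower than with a higher mean in KO. Of 29 genes, 27 were tested, 10 were higher and 17 lower, with a median log2 fold change of −0.05. By limma 0 reached an unadjusted p under 0.05, against 5.88% of all genes, and 0 an adjusted one, against 0% of all genes. The most abundant were *Thra*, a thyroid hormone receptor, at 60.1 ± 1.43 FPKM in WT and 59.4 ± 7.67 FPKM in KO, and *Smarcd3*, a chromatin remodelling subunit, at 37.8 ± 9.30 and 35.9 ± 1.78 FPKM (SD, n = 3 each; exact permutation p = 1 and 0.9). Every KO library was above every WT library for 1 of the 27 tested genes, against 5.37% of all genes, and this was *Esrrg*, which encodes the ERRα relative ERRγ. *Esrrg*, singled out after its values were seen, was at 1.55, 1.41 and 1.35 FPKM in WT and 3.61, 1.81 and 4.21 FPKM in KO, highest in KO 1 and KO 3 (log2 fold change 0.74, SE 0.34; limma p = 0.0521, adjusted p = 0.841; exact permutation p = 0.1). *Ep300*, which encodes a histone acetyltransferase and was also singled out after its values were seen, had every KO value below every WT value, with a log2 fold change of −0.29.

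Genes for mtDNA replication and maintenance showed no common direction. Of 26 genes 25 were tested, with 13 higher and 12 lower and a median log2 fold change of 0.01. By limma 0 were at an unadjusted p under 0.05, against 5.88% of all genes, and 0 after adjustment, against 0%. The median was −0.12 without WT 3, −0.06 without KO 1 and −0.09 with KO 2 alone against the WT libraries. The 2 most abundant were *Slc25a4*, the mitochondrial ADP/ATP carrier, at 404 ± 5.97 FPKM in WT and 403 ± 64.4 FPKM in KO, and *Suclg1*, a subunit of succinyl-CoA ligase, at 50.2 ± 8.10 and 65.1 ± 16.5 FPKM (SD, n = 3 each; exact permutation p = 1 and 0.3). Below every WT value in all KO libraries were *Peo1*, the symbol used here for the Twinkle helicase, at 5.21, 3.63 and 3.85 FPKM in WT and 2.38, 3.09 and 3.03 FPKM in KO, and the nuclease genes *Mgme1* and *Exog*. Their log2 fold changes were −0.44, −0.30 and −0.56 (exact permutation p = 0.1 for each). Above every WT value were *Slc25a36*, a pyrimidine nucleotide carrier, and *Sucla2*, with log2 fold changes of 0.40 and 0.28. These 5 of 25 genes were named after their values were seen, and over all genes tested 5.7% lay below and 5.37% above in the same way, 11.1% together.

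Genes for mitochondrial RNA handling, which process and stabilize the transcripts of mtDNA, had mostly positive log2 fold changes. Of 30 genes 29 were tested, 23 were higher and 6 lower in KO, and the median log2 fold change was 0.24 beside −0.01 for all genes. Yet 0 reached an unadjusted limma p under 0.05, against 5.88% of all genes, and 0 an adjusted one, against 0%. The median was 0.14 with KO 2 alone against the WT libraries and 0.18 with GC and length correction. Every KO library exceeded every WT library for 4 of the 29 genes, against 5.37% of all genes. These were *Tefm*, *Ptcd2*, *Nsun4* and *Fastk*, named after their values were seen. *Tefm*, the elongation factor of POLRMT, was at 2.01, 1.82 and 3.86 FPKM in WT and 4.08, 4.59 and 4.04 FPKM in KO (log2 fold change 0.60, SE 0.30; limma p = 0.0739, adjusted p = 0.841; exact permutation p = 0.1). *Ptcd2* was at 14.2, 13.6 and 10.9 FPKM in WT and 15.8, 18.7 and 19.6 FPKM in KO (log2 fold change 0.46, SE 0.20; limma p = 0.0509; exact permutation p = 0.1). *Slirp*, the RNA-stabilizing partner of LRPPRC, had the highest level, at 71.2, 77.0 and 83.2 FPKM in WT and 158, 70.9 and 99.2 FPKM in KO, so that KO 2 lay below the WT libraries. *Hsd17b10*, a subunit of mitochondrial RNase P, was at 60.8 ± 5.04 FPKM in WT and 70.1 ± 18.8 FPKM in KO (SD, n = 3 each; exact permutation p = 0.6). None of the 15 listed mtDNA-encoded transcripts has a value in the files, so the output of mtDNA transcription was not analysed here.

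Classic nuclear targets of NRF1, GABP and ERRα were led by 2 KO libraries. Of 36 genes 35 were tested, 25 were higher and 10 lower, with a median log2 fold change of 0.15 and 2 genes, or 5.71%, at an unadjusted p under 0.05 against 5.88% of all genes. The median deviation of the list from its mean over libraries was 0.30 in KO 1 and 0.29 in KO 3 but −0.44 in KO 2, on the log2 scale, while the WT libraries lay between −0.10 and 0.00. With KO 2 alone against the WT libraries, a comparison chosen after the data were seen, the median log2 fold change was −0.36. It was 0.01 without KO 1 or without KO 3, 0.39 without KO 2, 0.05 with GC and length correction and 0.35 with estimated depth as a covariate. *Uqcrb*, a complex III subunit, was higher in each KO library, at 286, 226 and 259 FPKM against 141, 163 and 187 FPKM (log2 fold change 0.65, SE 0.22; limma p = 0.0131, adjusted p = 0.841; exact permutation p = 0.1). *Surf1*, an assembly factor of complex IV, was lower in each, at 18.6, 12.1 and 22.3 FPKM against 28.4, 29.2 and 23.9 FPKM (log2 fold change −0.63, SE 0.24; limma p = 0.0274, adjusted p = 0.841; exact permutation p = 0.1).

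**Figure D4:**
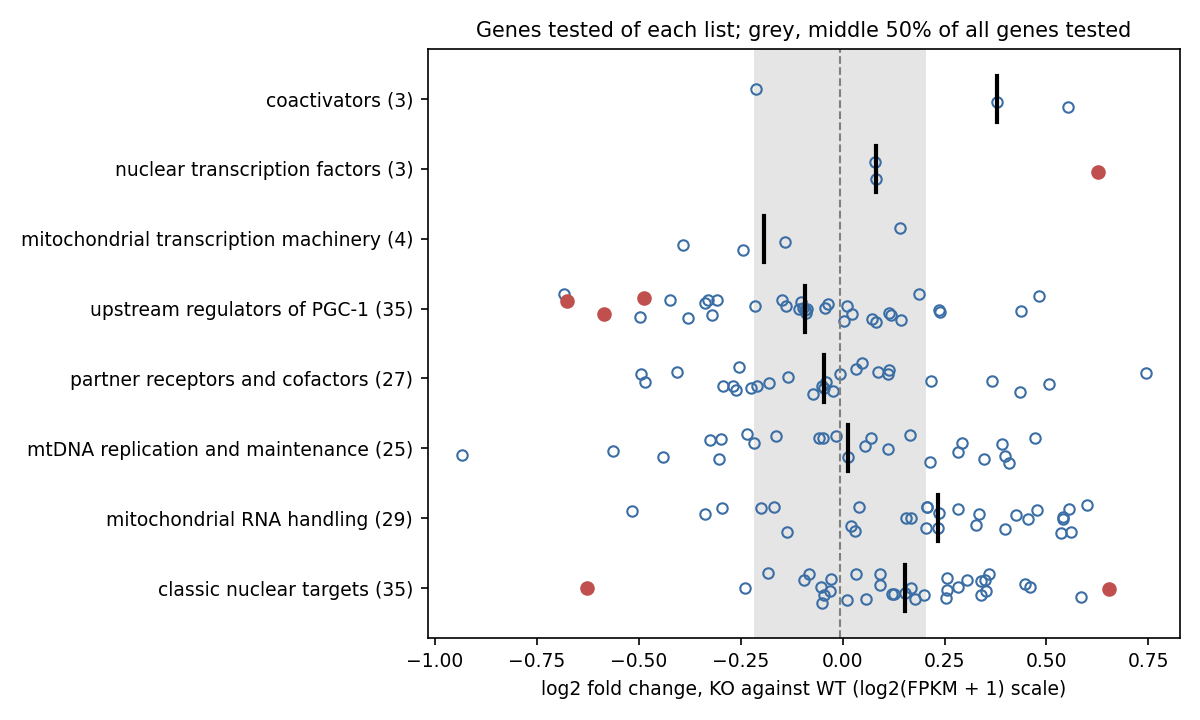
Log2 fold change of KO against WT (log2(FPKM + 1) scale, horizontal axis) for every gene tested of each list, with the number tested in brackets. Filled red points have an unadjusted limma p under 0.05, black bars mark list medians, the dashed line marks the median of all genes tested, and the grey band holds the middle 50% of all genes tested (−0.22 to 0.20). The band shows the spread of single genes and not of list medians, and the medians run from −0.19 for the mitochondrial transcription machinery to 0.38 for the 3 coactivators.

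Microvessel preparations hold several cell types, and fewer cells of a type cannot be told apart from less RNA per cell in these libraries. Endothelial markers were present in every library, with a summed level of 845 to 1195 FPKM in WT and 732 to 1034 FPKM in KO over 6 genes. The log2 fold changes were 0.09 for both *Pecam1* and *Slco1a4*, −0.11 for *Tek*, −0.14 for *Cldn5* and −0.40 for *Slc2a1*, with overlapping groups for each of these 5. The remaining marker *Cdh5*, the endothelial cadherin, was at 86.7, 92.3 and 91.3 FPKM in WT and 50.8, 42.5 and 38.1 FPKM in KO (log2 fold change −1.03, SE 0.19; limma p = 3.03e-04, adjusted p = 0.841; exact permutation p = 0.1). The summed levels of the 5 astrocyte markers (538 to 602 FPKM in WT, 391 to 430 FPKM in KO) and of the 4 microglia markers (82.0 to 101 and 70.5 to 79.6 FPKM) did not overlap between groups. The microglia markers did not share a direction, with 3 negative and 1 positive log2 fold change. The positive one was *P2ry12* (0.52), at 7.70 FPKM in WT and 11.6 FPKM in KO on average. Only *Cx3cr1* among the 4 had every KO value below every WT value. All 5 astrocyte markers had negative log2 fold changes, and 2 of them, *Gfap* and *Gja1*, were called lower in KO at the unadjusted limma threshold, against 3.11% of all genes. Neurons are known to express *Ppargc1a*, and the 8 neuron markers summed to 197, 293 and 369 FPKM in WT and 209, 339 and 147 FPKM in KO. The part of neuronal RNA in the level of *Ppargc1a* was not tested. Of the 8 neuron markers, 1 was called at the unadjusted threshold and lower in KO, against 3.11% of all genes.

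Choroid plexus epithelium, a tissue rich in mitochondria, set KO 1 and KO 3 apart. Its 4 markers summed to 3309, 2896 and 2844 FPKM in WT and to 8772, 2941 and 10520 FPKM in KO, nearly all of it *Ttr*. The list of classic nuclear targets was high in the same 2 libraries. The choroid plexus sum of KO 2 lay within the WT range, and KO 2 alone against the WT libraries gave log2 fold changes of 0.79 for *Esrra* and 0.47 for *Ppargc1a*, short of the unadjusted threshold, with the single KO library assumed to vary like the WT libraries. The part of choroid plexus RNA in these and the other values was not tested. Of the 4 choroid plexus markers 1, *Kl*, was called higher at the unadjusted threshold, against 2.77% of all genes. The pericyte, smooth muscle, oligodendrocyte and erythroid sums overlapped between the groups. At that threshold 1 of 4 oligodendrocyte markers (*Mag*) and 1 of 4 erythroid markers (*Hbb-bs*) were called lower, against 3.11%. *Hbb-bs* was listed at 0 in WT 1 and in every KO library. All 4 smooth muscle markers had positive log2 fold changes, with 0 called. Most of the pericyte sum was *Rgs5*, and 4 of the 5 pericyte markers had a lower mean in KO. Of these *Anpep*, a membrane peptidase, was at 33.2, 32.9 and 24.0 FPKM in WT and 23.0, 19.1 and 21.9 FPKM in KO (log2 fold change −0.46, SE 0.21; limma p = 0.048, adjusted p = 0.841; exact permutation p = 0.1). *Pdgfrb*, the pericyte receptor for PDGF-B, also had every KO value below every WT value (log2 fold change −0.39). None of the marker lists had a gene at 0 in all 6 libraries.

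**Figure D5:**
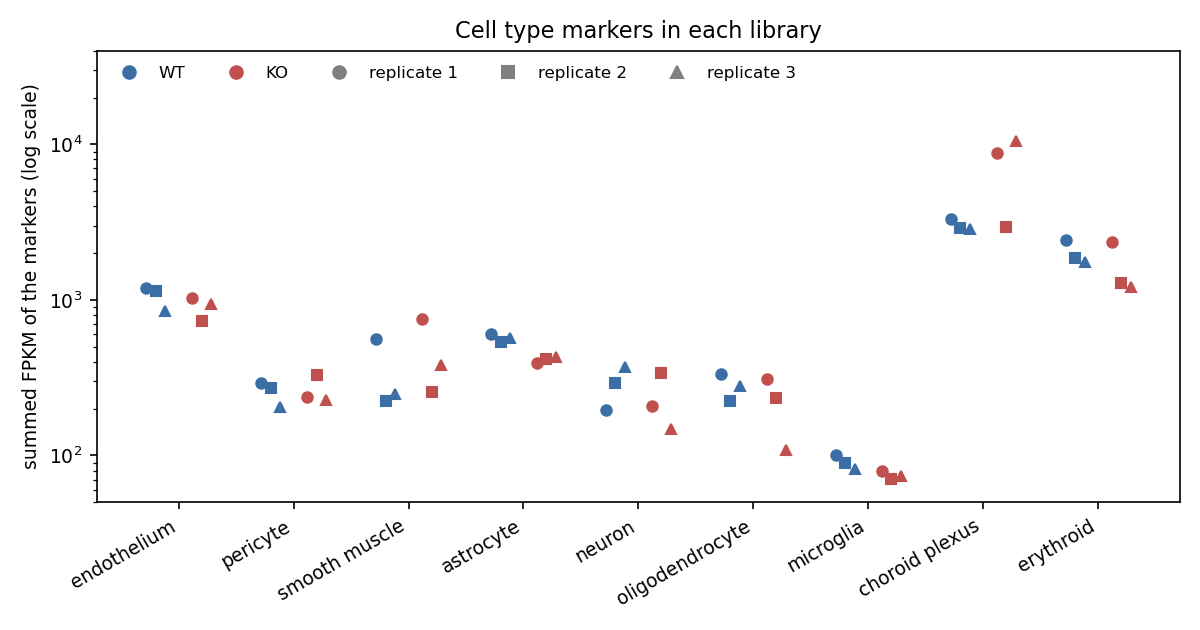
Summed FPKM of each marker list (vertical log axis) in the WT libraries (blue) and KO libraries (red), with 1 point per library, its shape giving the replicate number. The choroid plexus points of KO 1 and KO 3 lie apart at 8772 and 10520 FPKM, and the astrocyte and microglia points of the KO libraries all lie below those of the WT libraries. The microglia sum includes *P2ry12*, whose mean was higher in KO.

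Genes with the most similar profile over the 6 libraries were sought for 1 gene of each role, by the root mean square distance between log2(FPKM + 1) profiles centred on their own means. For *Ppargc1a* these were *Map6d1*, *Ascc3* and *Itga8*, at distances of 0.09 to 0.10, where the profile of *Ppargc1a* itself departs from flat by 0.35. *Itga8*, an integrin subunit, was at 3.89, 2.68 and 5.67 FPKM in WT and 6.63, 4.97 and 5.74 FPKM in KO. For *Nrf1* they were *Usp12*, *Mcl1* and *Rhpn1* (0.04 to 0.06), and for *Tfam* they were *Lclat1*, *Zfp37* and *Med29* (0.04 to 0.08). *Lclat1*, an acyltransferase of lipid metabolism, followed the 2 levels of *Tfam*, at 10.5, 7.59 and 10.7 FPKM in WT and 6.67, 7.40 and 12.4 FPKM in KO. These likenesses rest on 6 libraries and were picked from 14247 genes, and they carry no test.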

How the data were processed

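Libraries were made with a directional kit from the vessels of 3 WT and 3 KO mice and sequenced as paired ends. The authors trimmed reads (FASTX_Trimmer, BBMap), mapped them with TopHat to mm10 (both also in the submitters' processing notes) and deposited 1 FPKM value per gene symbol and library. The program that produced FPKM, the annotation and any scaling between libraries are not given in the sources used here. The authors tested genes with DESeq2, whose input was not analysed here.

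Groups and replicate numbers came from the sample titles. KO was compared with WT on log2(FPKM + 1) with limma 3.58.1 (R 4.3.3, trended prior variance, no scaling) for genes averaging 1 FPKM or more, with Benjamini-Hochberg adjustment over all 14247 genes. Fold changes on this scale understate changes of low genes. Single genes also had an exact two-sided permutation test over libraries. In other lists, up to 4 genes below an unadjusted p of 0.05 whose groups were separate were named, or else the 2 most abundant. The 3 genes nearest in profile were named for *Ppargc1a*, *Nrf1* and *Tfam*. The members and lists were chosen with earlier results of these data known.

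Depth was estimated from the spacing of values under 0.3 FPKM and annotated lengths (GENCODE M21, GRCm38), which were found for 22824 of 23183 symbols. The fit was tested on simulated data. Alternatives changed the filter, pseudocount, scaling, prior variance, replicate block, GC and length correction and libraries used, and 2 were chosen after the data were seen. Summaries used Python 3.11.15 and pandas 2.3.3.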

Additional observations from a re-analysis of the deposited data

How the results depend on the processing

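With 3 libraries a group, 0 of the 10 regulators passed adjustment under any of the 18 alternatives, which covered filters, pseudocount, scaling, prior variance, the replicate block, GC and length correction, left-out libraries and 2 fits chosen after the data were seen (estimated depth as a covariate, and KO 2 alone against WT). *Gadd45gip1* kept its direction and an unadjusted p under 0.05 in all 18, *Ppargc1a* and *Pprc1* kept their direction in each of 17 (at a minimum of 5 FPKM neither was tested), and *Esrra* kept it in 18 but was under 0.05 in 8. The count of regulators at an unadjusted p under 0.05, 1 in the report, was 0 without a filter, 0 without the trended prior variance, 0 with GC and length correction, 0 with that correction and the replicate block together, 0 with depth as a covariate and 0 with KO 2 alone, and ranged from 0 to 1 with a library left out, the 1 being *Ppargc1a* in place of *Esrra* without WT 3. The replicate block by itself left it at 1 (*Esrra*, log2 fold change 0.63) and changed no call among the 10. Over genes, the deviations of same-numbered WT and KO libraries had correlations of 0.037, 0.027 and 0.002. Those of libraries with different numbers ran from −0.073 to 0.046. Such correlations cannot tell whether same-numbered samples were handled together. The replicate numbers are those of the sample titles, and the deposited column headings number some libraries differently.

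Over all genes, the calls after adjustment ranged from 0 to 4 with a library left out and were 7 with KO 2 alone. Those at an unadjusted p ranged from 450 to 1871 with a library left out (1871 without KO 2) and were 1825 with KO 2 alone. The regulators' median log2 fold change was 0.30 with KO 2 alone. Directions turned for *Gabpa* (−0.03) and *Tfb2m* (−0.021) with GC and length correction, with or without the block. With depth as a covariate they turned for *Tfam* (0.16), *Tfb1m* (0.056) and *Tfb2m* (−0.055). With KO 2 alone they turned for *Ppargc1b* (0.44), *Nrf1* (−0.003) and *Polrmt* (0.20). With a library left out, log2 fold changes ranged from −0.54 to 0.058 for *Ppargc1b*, −0.067 to 0.18 for *Nrf1*, −0.009 to 0.19 for *Gabpa* and −0.97 to 0.21 for *Tfb1m*. Directions held, but sizes moved, from −0.38 to −0.01 for *Tfam* and 0.01 to 0.32 for *Tfb2m*. With depth as a covariate *Pprc1* was 0.04 and *Ppargc1b* −0.61. The cause was not tested. The share of *Ppargc1a* in coactivator FPKM stayed higher in KO with each library left out, by 2.72 to 15.9 percentage points. Exact permutation tests on FPKM cannot fall below 0.1 with 3 against 3 and say nothing about stability. At these depths *Tfb1m* in particular rests on few fragments.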

Other observations

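Of the genes in the pathway lists, 5 fell under the mean of 1 FPKM and were not tested. *Pparg*, a nuclear receptor of fat and lipid genes, was at 0.411, 0 and 0.307 FPKM in WT and at 1.04, 1.27 and 2.28 FPKM in KO, so that every KO library was above every WT library (exact permutation p = 0.1). *Dna2*, a helicase and nuclease that also acts in mitochondria, was at 0.533, 1.59 and 0.612 FPKM in WT and 0.352, 0.365 and 0.437 FPKM in KO, below every WT library (exact permutation p = 0.1). *Mterf1b*, *Hnf4a* and *Ucp3* overlapped between the groups, and the last 2 were listed at 0 in every WT library.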
